A study of Mus musculus with 8 samples.

Results

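Among CD45+CD11b+ cells sorted from the hearts of marrow-transplanted mice, 228 barcodes held transcripts of the complement component C1q together with at least 5 UMIs of 2 features named agfp and kgfp. The 228 were drawn from 2199 C1q-positive heart barcodes and from 11130 barcodes in all. A barcode was taken where at least 200 genes were detected, at most 10% of its UMIs (unique molecular identifiers, counted transcript molecules) were mitochondrial, and at least 80% of 10 or more hashtag UMIs were those of the heart. It then had to hold at least 5 UMIs of C1qa, C1qb and C1qc together, no Cd79a UMI and at most 5 UMIs of S100a8 and S100a9 together. The labels do not say what agfp and kgfp encode, and their sum is called GFP here from the names. The other 1971 C1q-positive barcodes held at most 4 GFP UMIs and are called the other macrophages. C1q and GFP thus chose the members, and their values are descriptions. Both donor groups had transplanted Mx1Cre:c-Myb fl/fl recipients, a line in which an interferon-inducible Cre can delete the floxed Myb gene, needed for blood formation. In the stroke group, 2 recipients carried marrow from donors with stroke, and in the control group 2 recipients carried marrow from control donors. Each mouse gave 1 library by 10x 3′ chemistry, in which heart and blood cells were pooled and told apart by a hashtag. Time after stroke and the strain, sex and age of the mice are not stated in the labels.

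Macrophages of the adult heart are of mixed origin. Those seeded before birth maintain themselves and are known for Lyve1, Timd4 and Folr2, whereas others are replaced from circulating monocytes, which the chemokine receptor Ccr2 draws out of the marrow. Classical monocytes are marked by Ly6c2 and Ccr2, and nonclassical monocytes, which patrol the vessel wall, by genes such as Ace and Nr4a1. C1q, the first component of the classical complement pathway, is made mainly by macrophages, and monocytes make little of it.

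Organ of origin rested on a pair of hashtag oligonucleotides, each 15 bases long, carried by antibodies and read beside the transcripts. Both are shown because every membership depended on which of them a barcode held.
TotalSeq-B0303, heart: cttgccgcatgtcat
TotalSeq-B0302, blood: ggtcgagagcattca
The median heart share of hashtag UMIs among the members was 99.8% in stroke replicate 1, 99.7% in stroke replicate 2, 99.9% in control replicate 1 and 99.9% in control replicate 2. It was under 95% in 40 of 228 members (17.5%), against 23 of 1971 other macrophages (1.17%).

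The libraries held between 10067873 and 16513840 UMIs. Members numbered 78 in stroke replicate 1 and 45 in stroke replicate 2, against 34 in control replicate 1 and 71 in control replicate 2. Control replicate 1 stood apart. Its members had no Xist UMI and 58 UMIs of Y-linked genes. Members of the other 3 mice had 244 to 442 Xist UMIs and no Y-linked UMI. The other macrophages went the same way, with 0 Xist and 205 Y-linked UMIs in control replicate 1. In the other 3 mice they had 1926 to 2595 Xist UMIs and at most 1 Y-linked UMI. These genes thus did not separate the GFP classes. Control replicate 1 was also the one library with kgfp transcripts. Contrasts between donor groups are therefore also given without it for gene counts, gene groups and several genes, though not for every gene named. No barcode sequence of a member recurred in another library, although 14 sequences were shared by libraries overall.

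GFP was split into a large near-empty class and a thin tail. The members' median was 32 to 36 UMIs in the stroke mice and control replicate 2, and 16.5 UMIs in control replicate 1. Of the 2199 C1q-positive barcodes, 1774 (80.7%) had no GFP UMI, 169 had 1, 28 had 2 to 4, 28 had 5 to 9, and 200 had 10 or more. The 28 barcodes just outside the threshold, at 2 to 4 UMIs, had a median GFP level of 408 CPM (UMIs per 1000000 UMIs), and the 28 just inside, at 5 to 9, had one of 1189 CPM. Of these, 8 outside and 9 inside came from control replicate 1. The members' summed GFP level was 4319 and 5244 CPM in the stroke mice and 1529 and 4949 CPM in the control mice. In the other macrophages it was 29.4 and 20.6 CPM with stroke marrow and 30.1 and 21.4 CPM with control marrow. Members of stroke replicates 1 and 2 and of control replicate 2 held agfp alone, with 3476, 2058 and 3155 UMIs, and those of control replicate 1 held 474 kgfp and 154 agfp UMIs.

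**Figure D1:**
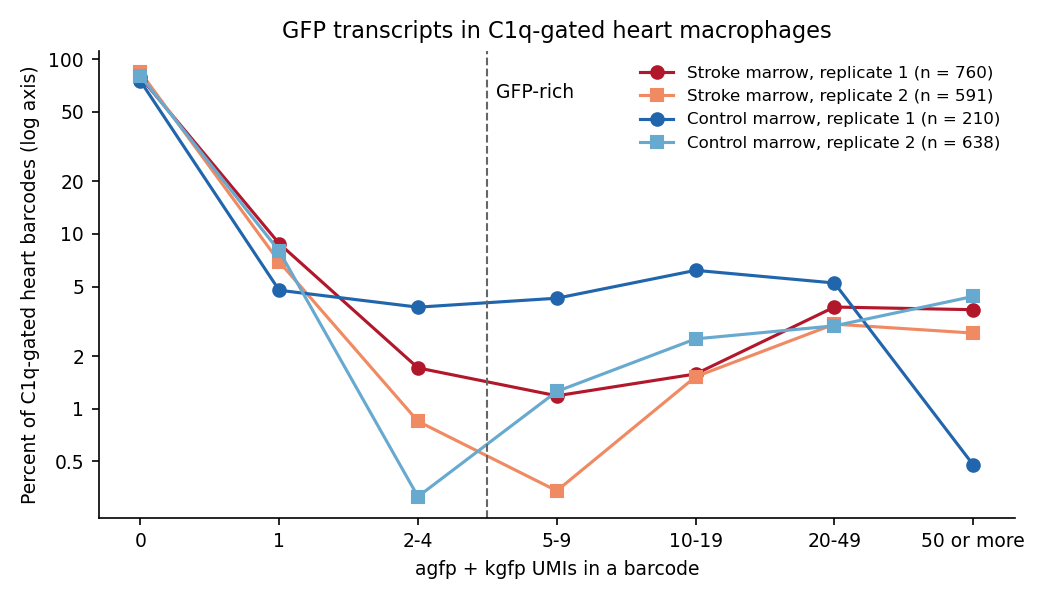
Percent of the C1q-positive heart barcodes of each mouse (log axis) against their agfp and kgfp UMIs in classes, 1 line per mouse, with the threshold of 5 UMIs dashed. Most barcodes of each mouse lie at 0, and control replicate 1 has a larger share at 2 to 19 UMIs and a smaller share at 50 or more than the other 3 mice.

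Monocytes of the same hearts set the scale for GFP. In the heart classical monocyte gate (at least 3 Ly6c2 UMIs, at most 1 C1q UMI), the GFP level was 7843 and 7883 CPM in the stroke mice and 2030 and 7103 CPM in the control mice. In the heart nonclassical monocyte gate (at least 3 UMIs of Ace, Treml4 and Ear2 together, at most 2 of Ly6c2) it was 7230 and 7261 CPM in the stroke mice and 2807 and 7309 CPM in the control mice. The members' sums lay below both gates in every mouse, and control replicate 1 was lowest in each gate. The strict subset, defined further on, had 6987 and 9869 CPM in the stroke mice and 2028 and 7004 CPM in the control mice. In stroke replicate 2 its sum lay above both gates, but 1 barcode held 224 of the 680 GFP UMIs. The median GFP level per strict barcode of that mouse was 6173 CPM. It was 7486 CPM in its classical and 6587 CPM in its nonclassical heart monocyte gate. Cells of the heart endothelial gate are of a type that marrow is not known to replace. There 0 of 55, 0 of 18 and 0 of 49 in stroke replicates 1 and 2 and control replicate 2 reached 5 GFP UMIs. The median depth of that gate was 2610 UMIs against 9440 UMIs in the members, so the threshold was harder to reach. Its summed GFP level was 45.7 and 71.4 CPM in the stroke mice and 23.4 CPM in control replicate 2. The gate took only barcodes without a UMI of Ptprc, the gene of CD45.

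The members were larger than the other macrophages in transcript content. Their median depth was 9911 and 9440 UMIs with stroke marrow and 11802 and 8279 UMIs with control marrow. That of the other macrophages was 4762 and 4497 UMIs with stroke marrow and 5206 and 4582 UMIs with control marrow. The groups did not overlap, and a minimum number of GFP UMIs is reached more readily by a deep barcode. Depth was also set against the 90th percentile of UMIs among the C1q-positive heart barcodes of the same mouse. Above it lay 110 members (48.2%) and 110 other macrophages (5.58%). Scrublet, which scores barcodes for likeness to simulated pairs of cells, set a different automatic threshold in each library and called 32 members. At 1 threshold for all libraries, the lowest of the 4, it called 94 of 228 members (41.2%) and 14 of 1971 other macrophages (0.710%). C1q made up 8317 and 8406 CPM of the members' transcripts in the stroke mice and 5835 and 9271 CPM in the control mice. Of the other macrophages' transcripts it made up 16720 and 16735 CPM in the stroke mice and 13311 and 16880 CPM in the control mice.

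In depth, Scrublet score and hashtag purity the members thus went, in part, against a label of single marrow-derived macrophages, and they are called GFP-rich barcodes from here on. A strict subset of 78 of them held 24 and 15 from the stroke mice and 14 and 25 from the control mice. Its barcodes had no Scrublet call at the common threshold and at least 95% heart hashtag. Their depth was no higher than the 90th percentile of the C1q-positive heart barcodes of their mouse. The subset's median depth was 6099 UMIs. The subset was defined after the values were seen, and counts and medians in it, against 1829 other macrophages held to the same limits, stand beside those of all members.

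The markers that go with the members' label were present in all 4 mice, as a description. Plac8, a small cysteine-rich protein of monocytes, was at 1111 and 861 CPM in GFP-rich barcodes of the stroke mice and at 528 and 798 CPM in those of the control mice. The other macrophages had Plac8 at 5.99 and 3.49 CPM with stroke marrow and at 52.1 and 31.2 CPM with control marrow. The classes did not overlap for Plac8, and the heart classical monocyte gate lay above both, at 1899 to 2729.6 CPM. That gate also held T and NK cell markers, at a summed level of 1446 to 8786 CPM. Ccr2 was at 389 and 418 CPM with stroke marrow and at 742 and 314 CPM with control marrow in GFP-rich barcodes, against 35.1 and 66.8 CPM with stroke marrow and 127 and 52.6 CPM with control marrow in the other macrophages. F10, coagulation factor X, was at 64.3 to 153 CPM against 0.388 to 3.01 CPM. Napsa, the aspartic protease napsin A, was at 143 to 257 CPM against 3.71 to 30.1 CPM. On GRCm38, Plac8 lies at 5:100553725-100572245, Ccr2 at 9:124101950-124113557, F10 at 8:13037308-13056676 and Napsa at 7:44572380-44586862. Within the strict subset Plac8 was at 591 and 377 CPM in the stroke mice and 728 and 509.5 CPM in the control mice, so the order of the mice differed from that in all members.

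To compare how many barcodes held a transcript, each barcode was thinned to 3000 UMIs, which left 217 GFP-rich barcodes and 1605 other macrophages. A UMI of Ccr2 or Plac8 was found in 77.4% of GFP-rich barcodes and 8.04% of the other macrophages. A UMI of Lyve1, Timd4 or Folr2, genes of resident macrophages, was found in 41.0% of GFP-rich barcodes and 69.0% of the other macrophages. Both kinds stood in the same barcode in 71 GFP-rich barcodes (32.7%) and in 51 other macrophages (3.18%). By mouse, both kinds were in 36.5% and 29.3% of GFP-rich barcodes with stroke marrow and in 20.6% and 36.8% with control marrow. Of the strict subset, 15 of 72 (20.8%) held both. A resident UMI was found in 0.571% of the heart classical and 0.457% of the heart nonclassical monocyte gate at the same depth, but both gates allowed at most 1 C1q UMI, which itself keeps macrophage transcripts out, so they are no measure of background. Lyve1, the hyaluronan receptor of resident macrophages, is a gene chosen after its values were seen. It was at 339 and 303 CPM with stroke marrow and 148 and 420.4 CPM with control marrow in GFP-rich barcodes, against 701 and 813 CPM with stroke marrow and 727 and 754 CPM with control marrow in the other macrophages. Strict GFP-rich barcodes had Lyve1 at 259.8 and 0 CPM in the stroke mice and 217 and 330.1 CPM in the control mice, so stroke replicate 2 had none.

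**Figure D2:**
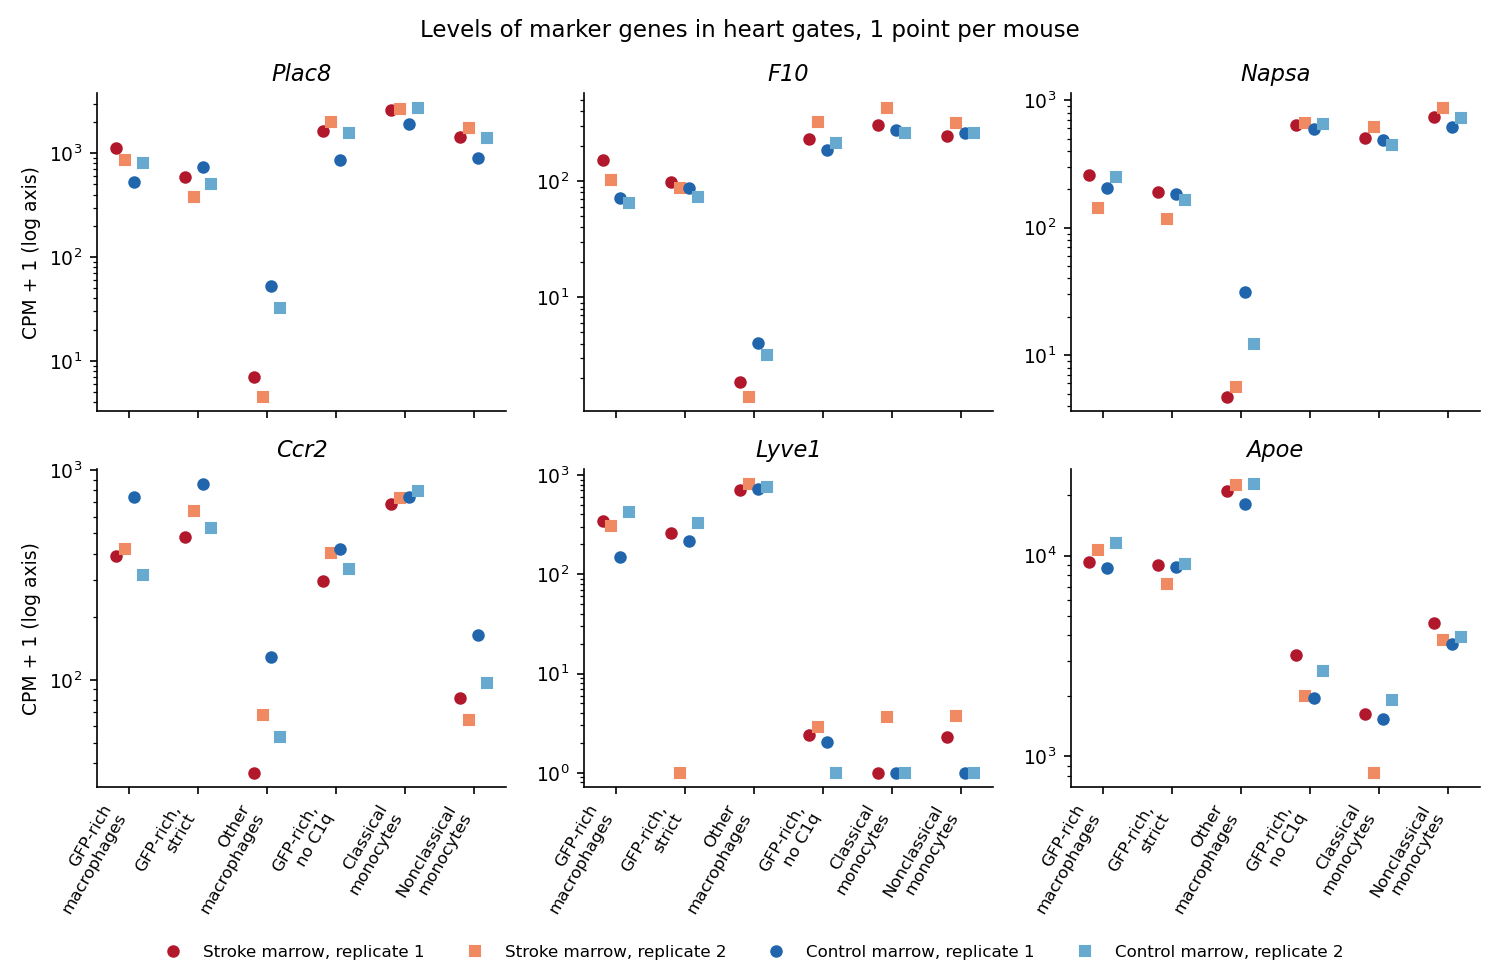
Level of Plac8, F10, Napsa, Ccr2, Lyve1 and Apoe (CPM of summed UMIs plus 1, log axis) in GFP-rich barcodes, their strict subset, the other macrophages, GFP-rich barcodes without C1q and both heart monocyte gates, 1 point per mouse. Plac8 in the GFP-rich barcodes, at 528 to 1111 CPM, lies between the other macrophages, at 3.49 to 52.1 CPM, and the classical monocyte gate.

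Among genes at 30 CPM or more in the GFP-rich barcodes, most that separated these neighbours had an intermediate level there. GFP-rich heart barcodes without C1q (at most 1 C1q UMI, 1083 barcodes) served as the opposite side. That pool was chosen without a monocyte marker and took in dendritic cell barcodes too, so it stands for monocytes only in part. Genes were taken at a mean of at least 30 CPM in the GFP-rich barcodes themselves. That limit left out genes that were low in them, so the shares and counts that follow are descriptions. Of 4936 such genes, 1135 and 1110 in the stroke mice and 1101 and 1053 in the control mice differed at least 2-fold between the other macrophages and that side. Of those, the GFP-rich barcodes had an intermediate level for 93.2% and 91.6% in the stroke mice and 88.0% and 94.97% in the control mice. These shares were 80.1% and 65.6% in the stroke mice and 79.1% and 80.9% in the control mice for the strict subset, where sums are smaller. Of the 4936 genes, 12 (0.243%) were above every neighbouring gate in all 4 mice, and among them Il1rn had the highest lowest ratio, 1.29. Il1rn, the interleukin-1 receptor antagonist, was at 24.9 and 35.7 CPM with stroke marrow and 36.5 and 26.7 CPM with control marrow in GFP-rich barcodes. The other macrophages had Il1rn at 13.1 and 12.4 CPM with stroke marrow and 5.01 and 8.34 CPM with control marrow. The same limit within the strict subset left 4744 genes. Of these, 29 (0.611%) were above every gate, led by Phlda1 at a lowest ratio of 1.86 and Spp1, the secreted matrix protein osteopontin, at 1.40. These 3 genes were picked by rank, after a limit set on the class in which they were high, and no test was made of them.

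The share of GFP-rich barcodes among C1q-positive barcodes did not differ beyond what 4 mice can show. It was 10.3% (95% Clopper-Pearson interval 8.20 to 12.6) and 7.61% (5.61 to 10.1) with stroke marrow, against 16.2% (11.5 to 21.9) and 11.1% (8.79 to 13.8) with control marrow. Intervals here cover counting error only. The groups did not overlap, and the difference of the means was −4.72 percentage points (two-sided exact permutation test, p = 0.333, the smallest that 2 against 2 mice allow). Without control replicate 1 it was −2.19 points. Barcodes were also thinned to 3000 UMIs, with shallower ones left out. The shares were then 9.16% and 8.23% with stroke marrow against 6.95% and 11.2% with control marrow. The groups overlapped there, through control replicate 1 alone. Its members' median GFP per unthinned barcode was 1398 CPM, against 3875 and 4444 CPM with stroke marrow and 4618 CPM in control replicate 2. A lower GFP level reaches a fixed 5 UMIs less readily after thinning, and its part in the overlap was not tested. Among strict barcodes the shares were 3.60% and 2.93% in the stroke mice and 7.78% and 4.56% in the control mice. As a share of all heart barcodes, GFP-rich C1q-positive barcodes were 4.71% and 3.31% with stroke marrow against 4.63% and 4.51% with control marrow, which overlapped (exact permutation test, p = 1). The C1q-positive barcodes of control replicate 1 numbered 210 of 734 heart barcodes, the fewest of the 4 mice.

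**Figure D3:**
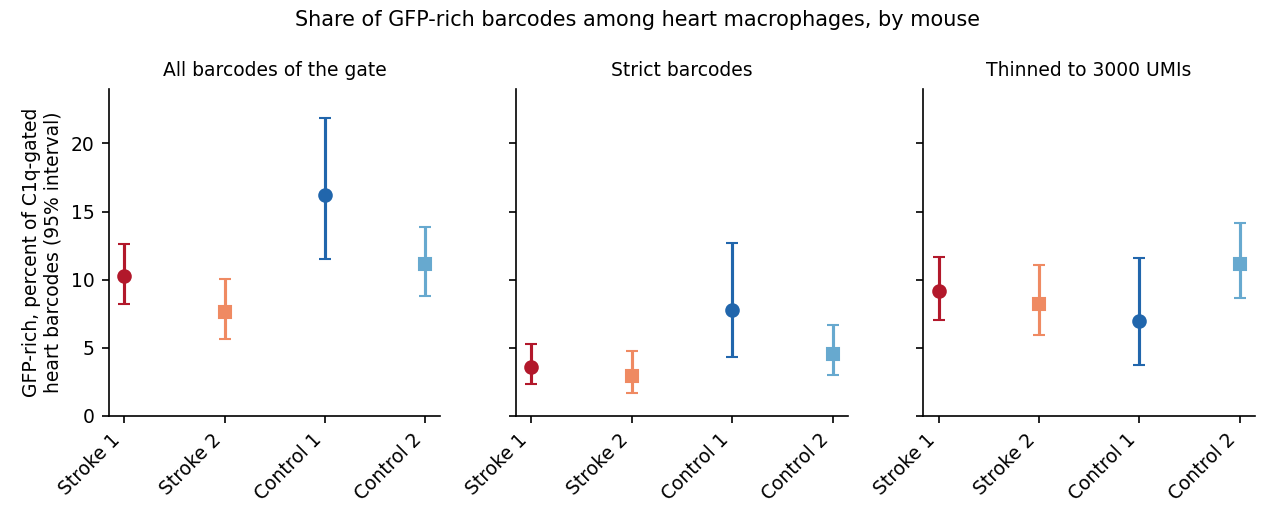
Share of GFP-rich barcodes among C1q-positive heart barcodes in percent, by mouse, with exact 95% intervals as bars, for all barcodes, for strict barcodes and for barcodes thinned to 3000 UMIs. Among all barcodes the stroke mice are at 10.3% and 7.61% and the control mice at 16.2% and 11.1%, and after thinning the groups overlap.

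Beyond the genes of the rule, UMIs were summed per mouse for the GFP-rich barcodes and for the other macrophages and compared with the mouse as a block, over 8680 genes. Levels below are CPM after TMM scaling, which equalises library composition. Among genes at 30 CPM or more, the following had the largest log2 fold changes upward. Cd209a, a C-type lectin of monocyte-derived and dendritic cells, was at 20.6 and 87.9 CPM with stroke marrow and 305 and 155 CPM with control marrow in GFP-rich barcodes. In the other macrophages it was at 0 CPM in both stroke mice and at 6.95 and 3.63 CPM with control marrow. The classes did not overlap, and GFP-rich barcodes of the control mice were highest. The log2 fold change was 5.86 (SE 0.28, edgeR quasi-likelihood test with Benjamini-Hochberg adjustment, adjusted p = 4.6e-15). Few barcodes carried it, as Cd209a UMIs came from 2 of 78 and 3 of 45 GFP-rich barcodes of the stroke mice. In control replicates 1 and 2 they came from 8 of 34 and 10 of 71. A single barcode held 16 of 17 UMIs in stroke replicate 1 and 43 of 98 in control replicate 2. Ly6c2, the surface protein that marks classical monocytes, was at 229.8 and 222 CPM with stroke marrow and 182 and 106 CPM with control marrow in GFP-rich barcodes. In the other macrophages it was at 4.55 and 0 CPM with stroke marrow and 9.93 and 2.18 CPM with control marrow. Every GFP-rich sum was above every other sum for Ly6c2 (5.78, SE 0.27, edgeR adjusted p = 4.3e-15). Hp, the haemoglobin-binding haptoglobin, was at 258 and 207 CPM with stroke marrow and 123 and 136 CPM with control marrow, against 4.84 and 0.785 CPM with stroke marrow and 10.9 and 5.80 CPM with control marrow (5.30, SE 0.26, edgeR adjusted p = 7.8e-15). These 3 genes kept log2 fold changes of 5.65, 6.40 and 5.92 in the strict subset.

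The other genes of the top 12 rose by log2 fold changes of 5.19 to 5.83 beside F10 and Plac8, which belong to the label. They were Thbs1 (the matrix protein thrombospondin-1, 50.5 to 114 CPM in GFP-rich barcodes against 0 to 2.18 CPM), Chil3 (a secreted chitinase-like lectin, 90.9 to 654 against 1.57 to 12.9 CPM) and Mcemp1 (a membrane protein of myeloid cells, 41.0 to 111 against 0 to 5.96 CPM). Ear2, a secreted ribonuclease of nonclassical monocytes, was at 61.4 to 118 CPM against 0.785 to 8.94 CPM. Mefv, the inflammasome sensor pyrin, was at 12.3 to 54.3 CPM against 0 to 1.99 CPM. Slpi, a secreted protease inhibitor, was at 12.6 to 75.0 CPM against 0.393 to 1.99 CPM, and Tiam2, an activator of the GTPase Rac, at 22.1 to 45.7 CPM against 0 to 1.99 CPM. The classes did not overlap for Thbs1, Chil3, Mcemp1, Ear2, Mefv, Slpi or Tiam2.

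Among genes at 30 CPM or more, those that follow had the largest log2 fold changes downward. Cxcl13, the chemokine that draws B cells, was at 0 and 51.7 CPM with stroke marrow and 54.0 and 3.15 CPM with control marrow in GFP-rich barcodes. The other macrophages had Cxcl13 at 246 and 411 CPM with stroke marrow and 257 and 163 CPM with control marrow. The classes did not overlap for Cxcl13, whose log2 fold change was −3.68 (SE 0.30, edgeR adjusted p = 1.6e-10). Vsig4, a complement receptor, was at 20.5 to 51.7 CPM against 99.0 to 244 CPM (−2.42, SE 0.15, edgeR adjusted p = 1.5e-12). Folr2, the folate receptor of resident macrophages, was at 192 and 181 CPM with stroke marrow and 108 and 200.3 CPM with control marrow in GFP-rich barcodes. In the other macrophages it was at 566 and 579 CPM with stroke marrow and 509 and 598 CPM with control marrow, so the classes did not overlap (−1.71, SE 0.10, edgeR adjusted p = 2.7e-13). Vsig4 and Folr2 had log2 fold changes of −5.36 and −2.03 in the strict subset. Also among the lowered were Cd207, the lectin langerin (−2.14), Slc40a1, the iron exporter ferroportin (−1.99), Mgmt, a DNA repair methyltransferase (−1.85), Thrb, a thyroid hormone receptor (−1.76), and Cxcl1, a neutrophil attractant (−1.73). Cxcl1 was not lower in the strict subset beyond its error (−0.23, edgeR adjusted p = 0.91). Ccdc106 (−1.67), the predicted genes Gm15655 (−2.33) and Gm49144 (−1.65) and the cardiac troponin gene Tnni3 (−1.93) completed the 12.

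Across all genes tested, 1125 (13%) were higher and 906 (10.4%) lower in GFP-rich barcodes, with a median log2 fold change of −0.01. In the strict subset 371 of 7086 (5.24%) were higher and 317 (4.47%) lower. Of the 371, 360 (97.0%) were also among the 1125, of which they made up 32%. Of the 317, 303 (95.6%) were also among the 906, of which they made up 33.4%. Strict barcodes are part of the same barcodes in the same mice, so shared calls are no independent support. The groups of genes that follow were chosen with results of these data known, and each count is read against those shares.

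All 20 resident cardiac macrophage genes were tested and all 20 fell, with a median log2 fold change of −1.29 (18 of 20 in the strict subset, median −1.61). Pf4, the chemokine platelet factor 4, was at 1272 and 969 CPM with stroke marrow and 902 and 1311 CPM with control marrow in GFP-rich barcodes. The other macrophages had Pf4 at 3323 and 2794 CPM with stroke marrow and 2462 and 3097 CPM with control marrow. Every mouse was lower in GFP-rich barcodes (−1.40, SE 0.06, edgeR adjusted p = 6.2e-16). F13a1, a coagulation transglutaminase (−1.02), Selenop, a selenium carrier (−1.09), and Mrc1, the mannose receptor (−0.87), fell as well. Of 19 general macrophage genes tested, 13 fell and 1 rose (median −0.55). Among them Apoe, the lipid carrier apolipoprotein E, averaged 10080 ± 1384 CPM against 21077 ± 2346 CPM (SD, n = 4 mice each), a log2 fold change of −1.07 (SE 0.04, edgeR adjusted p = 1.4e-16). Tyrobp, a signalling adaptor (0.13), and Ctss, a lysosomal protease (0.15), did not pass the test (edgeR adjusted p = 0.080 and 0.070). Of the 19, 7 fell and none rose in the strict subset.

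Of 22 tested genes of recruited macrophages and classical monocytes, 19 rose and 1 fell (median 2.26), and 15 of 21 rose in the strict subset (median 1.76). The strongly expressed members moved less than Ly6c2 or Hp. S100a6, a calcium-binding protein, was at 1385 and 1680 CPM with stroke marrow and 1521 and 1106 CPM with control marrow, against 675 and 614 CPM with stroke marrow and 652 and 523 CPM with control marrow (1.19, SE 0.07, edgeR adjusted p = 2.5e-13). The classes did not overlap for S100a6. Cd52, a surface glycoprotein of leukocytes, rose as well (0.93). Ifitm3, an interferon-induced membrane protein (0.39), rose but did not pass in the strict subset (edgeR adjusted p = 0.081), and Lyz2, lysozyme, fell slightly (−0.13). Of 15 genes of nonclassical monocytes, 14 rose and none fell (median 2.28), and 12 of 14 rose in the strict subset. Gngt2, a G protein subunit, was at 498 and 287 CPM with stroke marrow and 263 and 399 CPM with control marrow, against 68.5 to 82.2 CPM in the other macrophages (2.24, SE 0.12, edgeR adjusted p = 3.5e-14). Nr4a1, the orphan nuclear receptor that nonclassical monocytes need (2.03), and Dusp16, a phosphatase of MAP kinases (1.24), rose too. Genes of both monocyte kinds were thus raised in the same sums.

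Of 13 genes of antigen presentation on MHC class II tested, 10 rose and 1, the costimulatory ligand gene Cd86, fell (median 0.31). H2-Ab1, a class II beta chain, was at 2363 and 3949 CPM with stroke marrow and 3918 and 4102 CPM with control marrow, against 2185 and 2833 CPM with stroke marrow and 2673 and 2952 CPM with control marrow. The classes overlapped, as stroke replicate 1 was low in both, while within each mouse GFP-rich barcodes were higher (0.40, SE 0.06, edgeR adjusted p = 5.8e-06). The invariant chain gene Cd74 (0.27), H2-Aa (0.29) and H2-Eb1 (0.31) rose likewise. In the strict subset 7 of 12 rose and 1 fell (median 0.74), and these 4 genes had log2 fold changes of 0.84, 0.75, 0.72 and 0.81.

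Inflammatory genes were raised in part. Of 12 genes of interleukin-1 and the inflammasome, 8 rose and 2, the caspase genes Casp1 and Casp4, fell (median 0.52), against 3 and 1 of 11 in the strict subset (median 0.63). Il1b, the cytokine interleukin-1 beta, was at 619 and 711 CPM with stroke marrow and 820.5 and 667 CPM with control marrow, against 261 and 385 CPM with stroke marrow and 198 and 232 CPM with control marrow. The classes did not overlap (1.40, SE 0.11, edgeR adjusted p = 1.2e-10), and in the strict subset the log2 fold change was 1.73. Pycard, the inflammasome adaptor (0.57), and Nlrp3, a sensor (0.50), rose as well, and in the strict subset Nlrp3 did not pass the test (0.63, edgeR adjusted p = 0.058). Of 16 other cytokine and NF-kB genes, 11 rose and none fell (median 0.63; 6 of 14 rose in the strict subset, median 0.61), among them Nfkbia, an inhibitor that NF-kB induces (0.36), and Nfkb1 (0.65). Of 21 chemokine and receptor genes, 5 rose and 10 fell (median −0.19). Strict barcodes gave 4 higher and 4 lower of 20 (median −0.04). Ccl6 fell (−0.28), though not past the test without stroke replicate 1 (−0.20). Ccl4, a chemokine of inflammation, rose (0.51), but 1 barcode held 205 of 497 UMIs in control replicate 1. Its log2 fold change was 0.16 without control replicate 1 (edgeR adjusted p = 0.29) and 0.47 without control replicate 2 (edgeR adjusted p = 0.090). Of 31 type I interferon response genes, 9 rose and 2 fell (median 0.33), and in the strict subset 1 of 26 rose and none fell.

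Of 14 genes of efferocytosis, the uptake of dying cells, 7 fell and 1 rose (median −0.48), and 5 of 12 fell and none rose in the strict subset (median −0.55). Gas6, the bridging ligand of the receptors Axl and Mertk, was at 132 and 132 CPM with stroke marrow and 101 and 155 CPM with control marrow in GFP-rich barcodes, against 296 to 361 CPM in the other macrophages (−1.36, SE 0.11, edgeR adjusted p = 1.2e-10). The scavenger receptor gene Stab1 fell as well (−0.95). Lysosome and lipid genes moved both ways, 8 of 21 higher and 6 lower (median 0.12, without control replicate 1 −0.07, and 4 higher and 4 lower of 20 in the strict subset, median 0.075), with the lectin gene Lgals3 higher (1.67) and the protease gene Ctsb lower (−0.29). Matrix genes did likewise, 8 of 20 higher and 6 lower (median −0.11), but the strict subset, with 4 higher and 3 lower of 17, had a median of 0.36. Tgfb1, a growth factor of fibrosis, was higher (0.53) and Igf1, insulin-like growth factor 1, lower (−1.09). Of 16 glycolysis genes, 9 rose and 1 fell (median 0.49), including Gapdh (0.52), Pkm (0.57) and Ldha (0.60), and 4 of 14 rose in the strict subset (median 0.58). Of 18 macrophage transcription factors, 9 rose and 5 fell (median 0.26), with Maf lower (−0.89) and Zeb2 slightly higher (0.20), and the strict subset gave 4 higher and 4 lower (median 0.12). Immediate early genes, which cell isolation can induce, were split, 6 of 23 higher and 7 lower (median −0.14; 6 and 4 of 22 in the strict subset, median 0.03), with Junb higher (0.23) and Jun lower (−0.35). Of 22 genes of oxidative phosphorylation, 2 rose and none fell (median 0.11), and none was called in the strict subset (median 0.20). Of 15 cholesterol synthesis genes, 3 rose and none fell (median 0.51), and in the strict subset none of 11 was called (median 0.03). Of 13 cell cycle genes, 3 rose and none fell (median 0.59; 1 of 7 rose in the strict subset, median 0.36). Of the genes named in these groups, Lyz2, Nfkb1, Ccl6, Tgfb1, Zeb2 and Ldha also did not pass the test in the strict subset. With 1 mouse left out, calls were lost for Lyz2 without control replicate 2 (−0.11), for Junb without stroke replicate 2 (0.20) and for Zeb2 without stroke replicate 1 (0.16) or 2 (0.19).

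**Figure D4:**
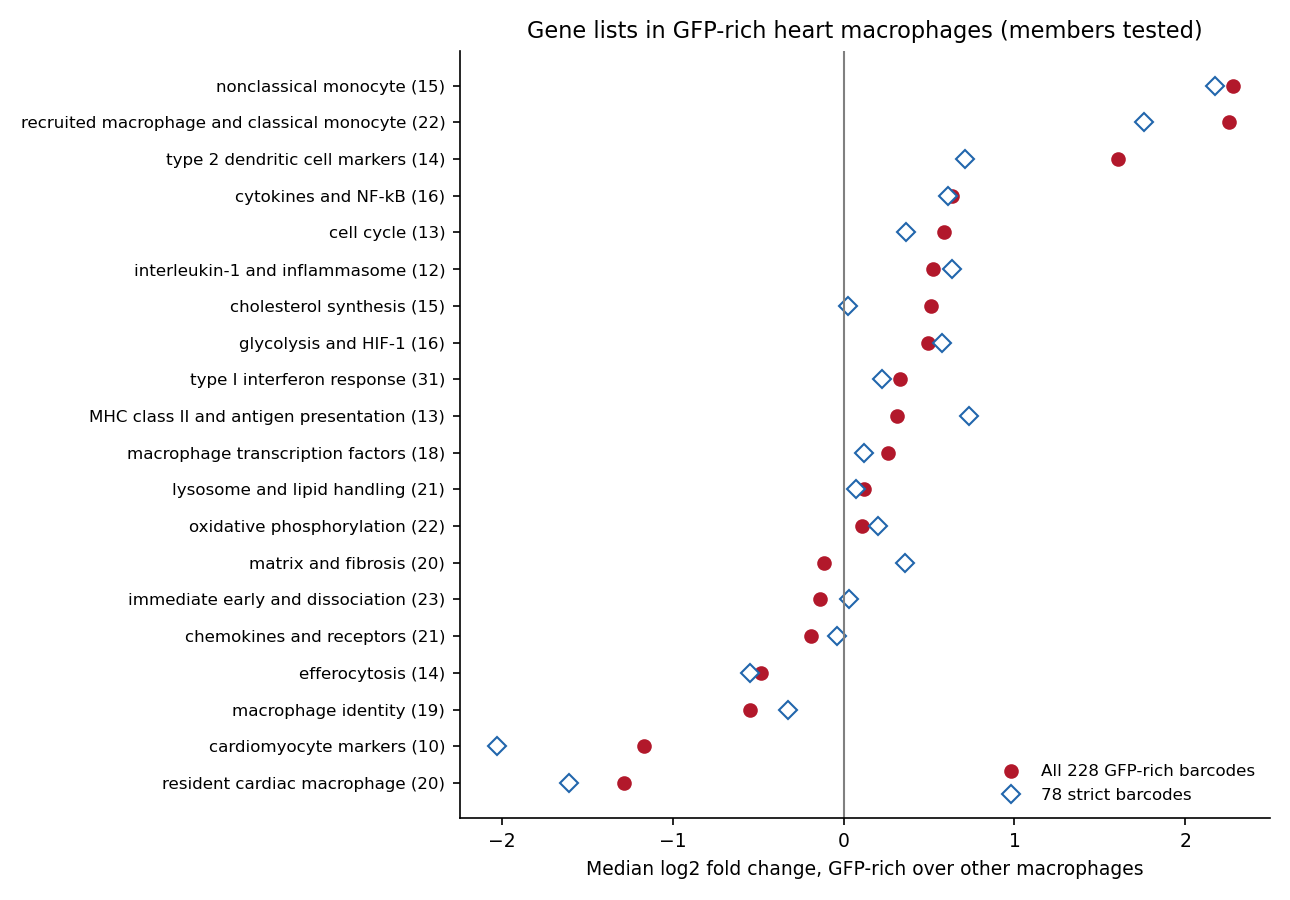
Median log2 fold change of each gene group, GFP-rich barcodes over other macrophages, for all members (filled) and for the strict subset (open), with the number of genes tested in brackets and a line at 0. Resident genes are at −1.29 and −1.61, recruited and classical monocyte genes at 2.26 and 1.76, and nonclassical monocyte genes at 2.28 and 2.18.

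Markers of further cell types moved with this comparison, and their part in it was not tested. Of 7 T and NK cell genes tested, 6 rose (median 2.39), and the summed level of all 16 was 219 to 2118 CPM in GFP-rich barcodes against 19.4 to 361 CPM in the other macrophages, with Cd3d, Cd3e, Trac and Cd8a at 0 in GFP-rich barcodes. The chemokine gene Ccl5 in stroke replicate 2 came from 5 barcodes, 1 of which held 224 of 415 UMIs. In the strict subset the summed T and NK level was 0 to 34.7 CPM. The endothelial genes tested, Fabp4, Pecam1 and Flt1, all rose (1.75, 2.10 and 2.62). Their list had a summed marker level of 107 to 235 CPM against 36.1 to 69.5 CPM, with Emcn and Plvap at 0 in GFP-rich barcodes. In the strict subset only Fabp4 could be tested (1.22, edgeR adjusted p = 0.11). The same endothelial list was at 745 to 1022 CPM in the heart nonclassical monocyte gate, above the GFP-rich barcodes in every mouse. It was at most 96.2 CPM in the heart classical monocyte gate, below the GFP-rich barcodes in every mouse. Fabp4 was also among the genes of nonclassical monocytes that rose. Of 14 type 2 dendritic cell genes, 8 rose and 3 fell (median 1.61; 4 of 8 rose in the strict subset, median 0.71), at a summed level of 1684 to 2573 CPM against 1988 to 2265 CPM. In the strict subset that summed level was 1838 and 4049 CPM with stroke marrow and 2973 and 3258 CPM with control marrow. A heart dendritic cell gate, chosen by Cd209a and Flt3 of the same list, had 3350 to 4369 CPM. The strict limits thus did not lower this level as they did that of T and NK cell markers. Of 5 neutrophil genes, 4 rose and 1 fell (median 1.61), while none of the 2 tested in the strict subset was called (median −0.69), at a summed level of 107 to 136 CPM against 40.2 to 99.3 CPM. Of 10 cardiomyocyte genes, 8 fell (median −1.17; 4 of 7 in the strict subset, median −2.03), at 58.6 to 165 CPM against 168 to 425 CPM. Of 4 B cell genes, 2 fell (median −0.68; 1 of 3 in the strict subset, median −0.24), at 304 to 359 CPM against 486 to 586 CPM.

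Stroke and control marrow were then compared within the GFP-rich barcodes, over 6514 genes. Each mouse is 1 replicate, and the p-values measure the spread between 2 mice a group. In the stroke mice 2 genes were higher (0.0307%), and 0 were lower (0%). With 1 sum per mouse, 260 genes (3.99%) had an unadjusted p under 0.05, and in 32.4% of genes the groups did not overlap, 16.2% in each direction. DESeq2 called 1 gene higher and 0 lower.

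Chil3 was at 450.1 and 657 CPM with stroke marrow against 90.6 and 174 CPM with control marrow. Both stroke mice were above both control mice, and the log2 fold change was 2.01 (SE 0.27, edgeR adjusted p = 0.016). The UMIs came from 31 and 15 barcodes of the stroke mice and from 7 and 16 of the control mice. Without control replicate 1 the log2 fold change was 1.66 (edgeR adjusted p = 1.1e-09), the lone control being taken to vary like the stroke mice. In the strict subset it was 2.14 and did not pass (edgeR adjusted p = 0.75), and DESeq2 gave 2.05 (adjusted p = 0.15). Chil3 in the heart classical monocyte gate was at 1982 and 2779 CPM with stroke marrow and at 267 and 1896 CPM with control marrow. In the heart nonclassical gate it was at 111 and 311 CPM with stroke marrow and 75.2 and 134 CPM with control marrow. In both gates control replicate 1 was lowest, and in the nonclassical gate control replicate 2 was above stroke replicate 1. The gene lies on GRCm38 at 3:106147554-106167564.

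Hist1h1b, a linker histone made in S phase (GRCm38 13:21779883-21780625), was at 95.6 and 143 CPM with stroke marrow against 12.2 and 4.71 CPM with control marrow. The stroke mice were higher (log2 fold change 3.86, SE 0.43, edgeR adjusted p = 0.0034), but 1 barcode held 75 of 79 UMIs in stroke replicate 1 and 1 held 53 of 55 in stroke replicate 2. The value therefore rests on 1 barcode in each stroke mouse.

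The 10 genes next in order did not pass the test. On the higher side were Lmo4, a LIM-only transcription cofactor (131 and 135 CPM with stroke marrow against 71.0 and 67.6 CPM with control marrow, edgeR adjusted p = 0.50), Hist2h2ac, a core histone (44.8 and 26.0 against 7.34 and 9.43 CPM), Hp (258 and 208 against 122 and 135 CPM), Slpi (75.0 and 26.0 against 14.7 and 12.6 CPM) and F10 (149 and 104 against 71.0 and 64.4 CPM). The groups did not overlap for any of these 5. On the lower side, Tnip3, which restrains NF-kB signalling, was at 144 and 270 CPM with stroke marrow against 468 and 548 CPM with control marrow (log2 fold change −1.35, edgeR adjusted p = 0.16). Rnf150, a RING finger protein, was at 103 and 125 CPM against 304 and 218 CPM, and Gm10076, a predicted gene, at 83.5 and 26.0 CPM against 174 and 589 CPM. Cd209a was at 20.6 and 88.3 CPM with stroke marrow against 304 and 154 CPM with control marrow (−2.28, edgeR adjusted p = 0.28). In stroke replicate 1, 1 barcode held 16 of the 17 Cd209a UMIs. Its log2 fold change was 0.07 in the strict subset. Fgf13, an intracellular growth factor homologue, was at 6.05 and 10.4 CPM against 44.1 and 31.4 CPM. Without control replicate 1, Tnip3 (−1.45, edgeR adjusted p = 1.4e-08) and Cd209a (−1.77, edgeR adjusted p = 5.3e-07) passed, again with the lone control taken to vary like the stroke mice. In the strict subset Tnip3 was at −0.64, and there without control replicate 1 Cd209a was at 2.47, the opposite direction (edgeR adjusted p = 0.99).

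Of the label's markers, Plac8 was at 1082 and 878 CPM with stroke marrow against 531 and 799.9 CPM with control marrow (log2 fold change 0.55, edgeR adjusted p = 1), and the groups did not overlap. Its log2 fold change was −0.32 in the strict subset. Napsa (250.5 and 145 CPM against 203 and 251 CPM) and Ccr2 (379 and 426 CPM against 747 and 314 CPM) overlapped between the groups. Of 26 recruited macrophage and classical monocyte genes tested, 1 was called, Chil3, and 21 had positive values (median log2 fold change 0.25, against 0.00 for all genes). Their groups did not overlap for 15 genes, all higher with stroke marrow, where 16.2% of all genes tested behaved so. Without control replicate 1 the median was 0.48 and 4 genes were called, Chil3, F10, Lgals3 and Ly6c2. The strict subset did not keep that direction: 10 of 21 values were positive and 11 negative (median −0.11, against −0.01 for all genes tested there), and Ly6c2 was at −1.97. All 18 tested resident genes had positive values and none was called (median 0.12), without control replicate 1 the median was −0.06, and in the strict subset 9 of 15 values were negative (median −0.20). Of 12 MHC class II genes none was called and 10 had negative values (median −0.34). Without control replicate 1 the median of 13 genes was also −0.34. The groups did not overlap for 7 of the 12, of which 6 were lower and 1 higher with stroke marrow. Of all genes tested, 16.2% lay apart in each direction. H2-Aa was at 2356 and 3699 CPM with stroke marrow against 4193 and 3806 CPM with control marrow (−0.41, edgeR adjusted p = 1), and in the strict subset its log2 fold change was 0.01 and the median of 9 genes was 0.02. Of 29 interferon response genes none was called (median 0.32). Without control replicate 1 their median was 0.07 over 30 genes, against 0.02 for all genes. The groups did not overlap for 7 of the 29, all higher with stroke marrow, against 16.2% of all genes tested. Strict barcodes gave 9 of 11 positive values (median 0.11).

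**Figure D5:**
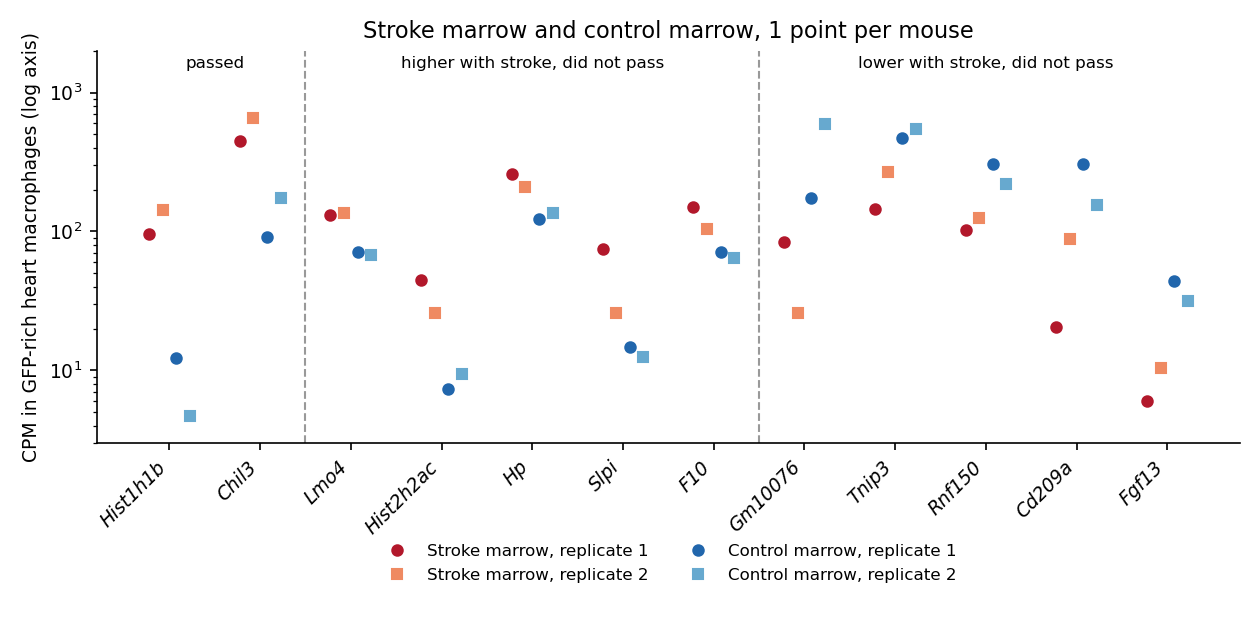
CPM after TMM scaling (log axis) of the 12 genes named in the comparison of donor groups, in GFP-rich barcodes, 1 point per mouse, with the stroke marrow mice left of the control marrow mice and the genes that passed the test on the left. Chil3 lies at 450.1 and 657 CPM with stroke marrow against 90.6 and 174 CPM with control marrow.

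Whether the ratio of GFP-rich barcodes to other macrophages differed between donor groups was tested as an interaction over 8680 genes, and 9 genes were higher (0.104%) and 8 lower (0.0922%) with stroke marrow. The ratio of Plac8 was higher with stroke marrow by 3.47 on the log2 scale (SE 0.31, edgeR adjusted p = 1.4e-10). Its other macrophages were at 5.98 and 3.53 CPM with stroke marrow against 51.7 and 31.2 CPM with control marrow, so the groups did not overlap on that side either. For Chil3, which was low in the other macrophages, the ratio was higher by 3.95 (SE 0.45, edgeR adjusted p = 9.2e-08). For Tnip3 the difference was −1.69 (SE 0.26, edgeR adjusted p = 8.5e-05). DESeq2 called 3 higher and 0 lower, and without control replicate 1 the counts were 6 and 7. Without it the differences were 2.96 for Plac8, 3.64 for Chil3 and −2.07 for Tnip3, all past the test. Strict barcodes gave 0.86 for Plac8, 2.83 for Chil3 and −1.28 for Tnip3, none past the test (edgeR adjusted p = 1 for each).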

How the data were processed

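Per the submitters' processing notes, Cell Ranger 7.1.0 and the mm10 build were used; the deposited matrix holds raw UMI counts per gene and barcode for 11130 barcodes, with the hashtag counts beside them. Barcode suffixes 1 to 4 were taken as the sample order of the labels. That the suffix names the sample is an assumption of the analysis, since no label states it. Heart barcodes past the limits on genes, mitochondrial and hashtag UMIs were gated as the report describes. UMIs were summed per mouse and class, genes were kept by filterByExpr, and the 8 gate genes were left out of every test. Sums were scaled by TMM and tested with edgeR 4.0.16 (quasi-likelihood, FDR 0.05) in R 4.3.3: donor groups without a block, classes with the mouse as a block, and the interaction in one fit with the mice as blocks. The SE printed with an edgeR log2 fold change is its absolute value divided by the square root of the test's F statistic. It restates the test and is no separate measure of the spread between mice. DESeq2 1.42.0 was an alternative. Tests ran on simulated counts first. Scrublet came from scanpy 1.11.5, at an expected rate of 6%, and its calls were kept in the main sets.

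Named genes were the 12 largest changes per direction at FDR 0.05, at least 30 CPM in a group and moved alike in the mice (where fewer passed, the 5 smallest p-values that did not), the label's markers, and the 4 most abundant genes of each list. Members and lists were chosen with earlier results of these data known. The strict subset, the common Scrublet threshold and the window of 4000 to 8000 UMIs were chosen after seeing the data. CPM outside the tests are plain shares of the summed UMIs. Where reads of near-identical genes could be split, such as the histones and predicted genes, values are uncertain.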

Additional observations from a re-analysis of the deposited data

Results flagged for a closer look

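The genes here differed between donor groups in the log2 ratio of GFP-rich barcodes to other heart macrophages, by the interaction test (edgeR, Benjamini-Hochberg adjusted) and with every stroke mouse on one side of every control mouse. The difference, stroke minus control, was 6.15 for Hist1h1b, where 1 barcode held 75 of 79 UMIs in stroke replicate 1 and 53 of 55 in stroke replicate 2. It was 4.54 for Mcemp1, 3.95 for Chil3, 3.47 for Plac8, 3.02 for Ccdc88c and 1.96 for Plcb1, a phospholipase. For Top2a, a topoisomerase of dividing cells, it was 2.29, and 1 barcode held 24 of 28 UMIs in stroke replicate 1 and 27 of 31 in stroke replicate 2. It was −4.10 for the chemokine gene Cxcl9, where 1 barcode held 40 of 63 UMIs in control replicate 2. It was −1.69 for Tnip3, −1.22 for Ccl4, −0.91 for Rnf150 and −0.58 for the metallothionein gene Mt1. With each mouse left out in turn, Hist1h1b, Chil3 and Plac8 passed the test in 4 of 4 cases, Cxcl9, Tnip3 and Ccl4 in 3 of 4, Mcemp1, Ccdc88c, Top2a and Plcb1 in 2 of 4, Rnf150 in 1 of 4 and Mt1 in 0 of 4. Ccl4 ranged from −1.72 to −0.72 and was nearest 0 without control replicate 1, in which 1 barcode held 205 of 497 UMIs. Mcemp1 and Chil3 were low in the other macrophages, at the levels given above, so their ratios rest on few UMIs of that class.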

How the results depend on the processing

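A design of 4 mice with 34 to 78 GFP-rich barcodes each, and a control library that stood apart, limit every contrast of donor groups, and depth, doublets and hashtag purity differed between the GFP classes.

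Counts of genes higher with stroke marrow, 2 at first, were 1 with DESeq2, with a GFP threshold of 10, with one Scrublet threshold and with one fit of all 8 sums, 0 with 95% hashtag purity, without deep barcodes, at 4000 to 8000 UMIs and in the strict subset, 12 without the low-count filter, and 5 in the strict subset without control replicate 1. Genes lower, 0 at first, were 24 without the filter, 1 at a C1q threshold of 20 and 4 in the strict subset without control replicate 1. Leaving out each mouse gave 3 to 44 higher and 4 to 54 lower; the counts were 14 and 12 without stroke replicate 1, 3 and 4 without stroke replicate 2, 19 and 17 without control replicate 1, and 44 and 54 without control replicate 2. A replicate block left 2 and 0. Differences between replicates 1 and 2 were nearly uncorrelated between the donor groups (correlation −0.0514 over 2960 genes). With 1 such difference a group, this cannot decide whether the numbers pair the mice, and the labels do not say.

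Between GFP classes, genes higher numbered 625 without deep barcodes, 347 at 4000 to 8000 UMIs, 371 in the strict subset and 570 thinned to 3000 UMIs. Genes lower numbered 407 with DESeq2, 445 without deep barcodes, 294 at 4000 to 8000 UMIs, 538 with one Scrublet threshold, 317 in the strict subset and 406 thinned. Leaving out each mouse gave 873 to 1177 higher and 613 to 884 lower, and without the replicate block 990 and 759.

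Interaction counts, higher and lower, were 4 and 4 with RLE scaling, 3 and 0 with DESeq2, 22 and 20 without the filter, 4 and 4 at a GFP threshold of 10, 4 and 4 at a C1q threshold of 20, 18 and 13 at 95% hashtag purity, 16 and 29 without automatic Scrublet calls, 3 and 1 with one Scrublet threshold, 2 and 3 in the strict subset and 2 and 1 thinned; 3 were higher at 4000 to 8000 UMIs. Leaving out each mouse gave 6 to 36 and 7 to 34.

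The difference in share among C1q-positive barcodes ranged from −7.25 to −2.19 points with each mouse left out. It was −2.33 points without automatic Scrublet calls, −5.50 at a GFP threshold of 2 and −0.368 thinned, and the groups overlapped in each of these settings. The share among heart barcodes turned positive without automatic Scrublet calls (0.373 points) and thinned (0.886), and ranged from −1.26 to 0.137 with each mouse left out.

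Log2 fold changes of donor groups that turned sign, in order without deep barcodes, at 4000 to 8000 UMIs and in the strict subset, were −0.0034, −0.50 and −0.11 for Hp and −0.33, −0.35 and −0.32 for Plac8. Cd209a gave 0.041 without deep barcodes, 0.069 in the strict subset and 2.47 there without control replicate 1, where Plac8 gave −0.047 and Ccr2 0.041. With each mouse left out Napsa ranged from −0.66 to 0.14 and Ccr2 from −0.91 to 0.36. Between classes, Cxcl1 gave 0.035 without deep barcodes and 0.54 at 4000 to 8000 UMIs. Interaction values in that order were −0.19, −1.43 and −1.38 for Plcb1 and 0.018, 0.27 and 0.092 for Rnf150, and Mt1 gave 0.25 at 4000 to 8000 UMIs and 0.19 in the strict subset. The cause was not tested.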
